A study of Saccharina japonica with 9 samples.

Results

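Chromosomes 7 and 29 of the kelp *Saccharina japonica* were examined through the 13 scaffolds, that is, assembled stretches of sequence, that the study's list of nuclear tRNA genes assigns to them. That list gives a chromosome to 291 of the 9613 scaffolds with listed methylated cytosines (mCs), of which 188 lie on chromosomes 1 to 31 and 103 on chromosome 0, an artificial collection of unanchored scaffolds. Chromosome 7 was represented by 7 scaffolds with 2.13 Mb and chromosome 29 by 6 scaffolds with 2.38 Mb, so each holds at least 1 predicted tRNA gene and only the placed part of each chromosome was measured.

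Whole-genome bisulfite sequencing (WGBS) was performed on DNA from entire bodies of strain Ye-c12. There were 3 libraries each of male gametophytes (MG, 2 months old), female gametophytes (FG, 2 months old) and sporophytes (SP, 4 months old). The study describes the 3 libraries of a stage as biological replicates, and the labels do not say how many individuals each held. Per the study, the gametophytes came from a blade of a Ye-c12 sporophyte and were multiplied by cloning. The sporophytes came from crossing FG and MG. How many clones each sex held is not stated, so differences between the sexes cannot be told apart from differences between clones. The libraries listed 684742 to 6255023 nuclear mCs and 6617 to 63089 mCs on the 13 scaffolds.

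A kelp alternates between a microscopic haploid generation, the separate male and female gametophytes, and the large diploid sporophyte that grows from the fertilized egg. In bisulfite sequencing an unmethylated cytosine is read as thymine and a methylated cytosine as cytosine, so each mC has a count of methylated and of unmethylated reads. Cytosines are grouped by the bases that follow them into the contexts CpG, CHG and CHH, where H is any base but G. The share of reads that are methylated is the methylation level of the mC (MLmc). The level of a scaffold is given here as the sum of MLmc per Mb, and the length of a scaffold is the largest position listed on it in any library.

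The lists hold only cytosines called methylated, with at least 5 reads, so a cytosine without methylated reads and a cytosine without enough reads cannot be told apart. Of the mCs on the 13 scaffolds, 96.0% to 99.3% rested on 1 methylated read in each library and chromosome. Library SP1 stood apart from the other sporophytes in context, with 27.3% of its chromosome 7 mCs in CpG, against 59.2% in SP2 and 62.2% in SP3.

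The chromosome 29 scaffolds fell into 2 kinds. On scaffolds 146, 170, 320, 745 and 1604 MG had fewer methylated reads per mapped read than FG along almost the whole length, with log2 fold changes of -1.03 to -1.23, while scaffold 58, the longest, resembled the rest of the genome. On chromosome 7, 5 scaffolds were called lower in MG by a smaller margin, scaffold 1062 did not pass, and scaffold 765 changed along its length. The scaffolds of both chromosomes had higher levels in either gametophyte than in SP.

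Scaffold 745 (position 1 to 221796) had the largest difference between the sexes. It carried 1230, 1417 and 1706 methylated reads in the MG libraries, against 3331, 2530 and 3755 in FG, and 790, 335 and 385 in SP. Every MG library lay below every FG library and above every SP library. The log2 fold change of MG over FG, with the mapped reads of each library as its size, was -1.23 (adjusted p = 1.69e-05 in edgeR's quasi-likelihood test over 8750 scaffolds).

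Scaffold 170 (position 1 to 491948), the scaffold with the highest level in FG, had 4904, 4918 and 6076 methylated reads in MG, against 10347, 8425 and 11825 in FG, and 2670, 1175 and 1353 in SP. The sexes did not overlap, and the log2 fold change of MG over FG was -1.03 (adjusted p = 0.00014, edgeR). Scaffolds 146 (position 1 to 518123), 320 (position 1 to 369855) and 1604 (position 1 to 97754) had log2 fold changes of -1.08, -1.10 and -1.11, and all 3 passed the same test. These 5 differences passed it also without any 1 of the 6 libraries. With only mCs covered by at least 10 reads, scaffold 320 was the only one of the 5 still called, and the log2 fold changes of all 5 stayed below 0.

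Scaffold 58 (position 1 to 677230) had 6509, 7098 and 8499 methylated reads in MG, against 6120, 4618 and 8109 in FG, and 2095, 845 and 980 in SP. Its sexes overlapped. The log2 fold change of MG over FG was 0.15 (adjusted p = 0.708, edgeR), next to a median of 0.16 over all scaffolds tested. Under edgeR's TMM scaling it was -0.001, and it was called higher in MG only when FG3 was left out.

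The chromosome 7 scaffolds differed less. Scaffold 821 (position 1 to 201139) had 1234, 1137 and 1587 methylated reads in MG, against 1962, 1441 and 2555 in FG, and 811, 297 and 351 in SP. The highest MG library exceeded the lowest FG library, and the log2 fold change of MG over FG was -0.67 (adjusted p = 0.0124, edgeR). Scaffold 97 (position 1 to 578517), the longest of chromosome 7, had 3054, 2946 and 4207 methylated reads in MG, against 4711, 3349 and 5877 in FG, and 1648, 574 and 699 in SP. Its log2 fold change of -0.53 was just past the threshold (adjusted p = 0.0482, edgeR). Scaffolds 248, 328 and 937 were also called lower in MG, at -0.62, -0.49 and -0.58, while scaffold 1062 had -0.57 and did not pass (adjusted p = 0.0684).

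In all, 10 of the 13 scaffolds were called lower in MG than in FG and none higher, where 2.21% of the 8750 scaffolds tested were called lower and 7.89% higher. As the study had reported this direction for both chromosomes from the same libraries, the excess is no independent support for it. The chromosome 7 calls rested on few libraries. The number called over both chromosomes was 6 without FG1, 5 without MG1 and 5 without MG2, and in the fits without MG1 or MG2 the 5 were the chromosome 29 scaffolds. Against the median of all scaffolds tested, the differences were -1.20 to -1.39 on the 5 chromosome 29 scaffolds, -0.65 to -0.83 on chromosome 7 without scaffold 765, -0.18 on scaffold 765 and -0.01 on scaffold 58.

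The sum of MLmc per Mb moved less than the methylated reads. On scaffold 745 it was 826, 918 and 941 in MG, against 1664, 1255 and 1568 in FG, and 364, 209 and 223 in SP, a log2 difference of MG over FG of -0.73 (standard error 0.196, adjusted p = 0.003 in limma over 4099 scaffolds). Scaffolds 320 and 1604 were also called lower, at -0.53 and -0.57. The other 10 scaffolds did not pass, among them scaffold 170 with 1333, 1342 and 1399 in MG, against 1952, 1676 and 1807 in FG (log2 difference -0.41, adjusted p = 0.201). Over all scaffolds 0.512% were called lower in MG. This count of 3 depended on the libraries, with 0 called without FG1, MG1 or MG2, 1 without MG3 and 8 without FG2.

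**Figure D1:**
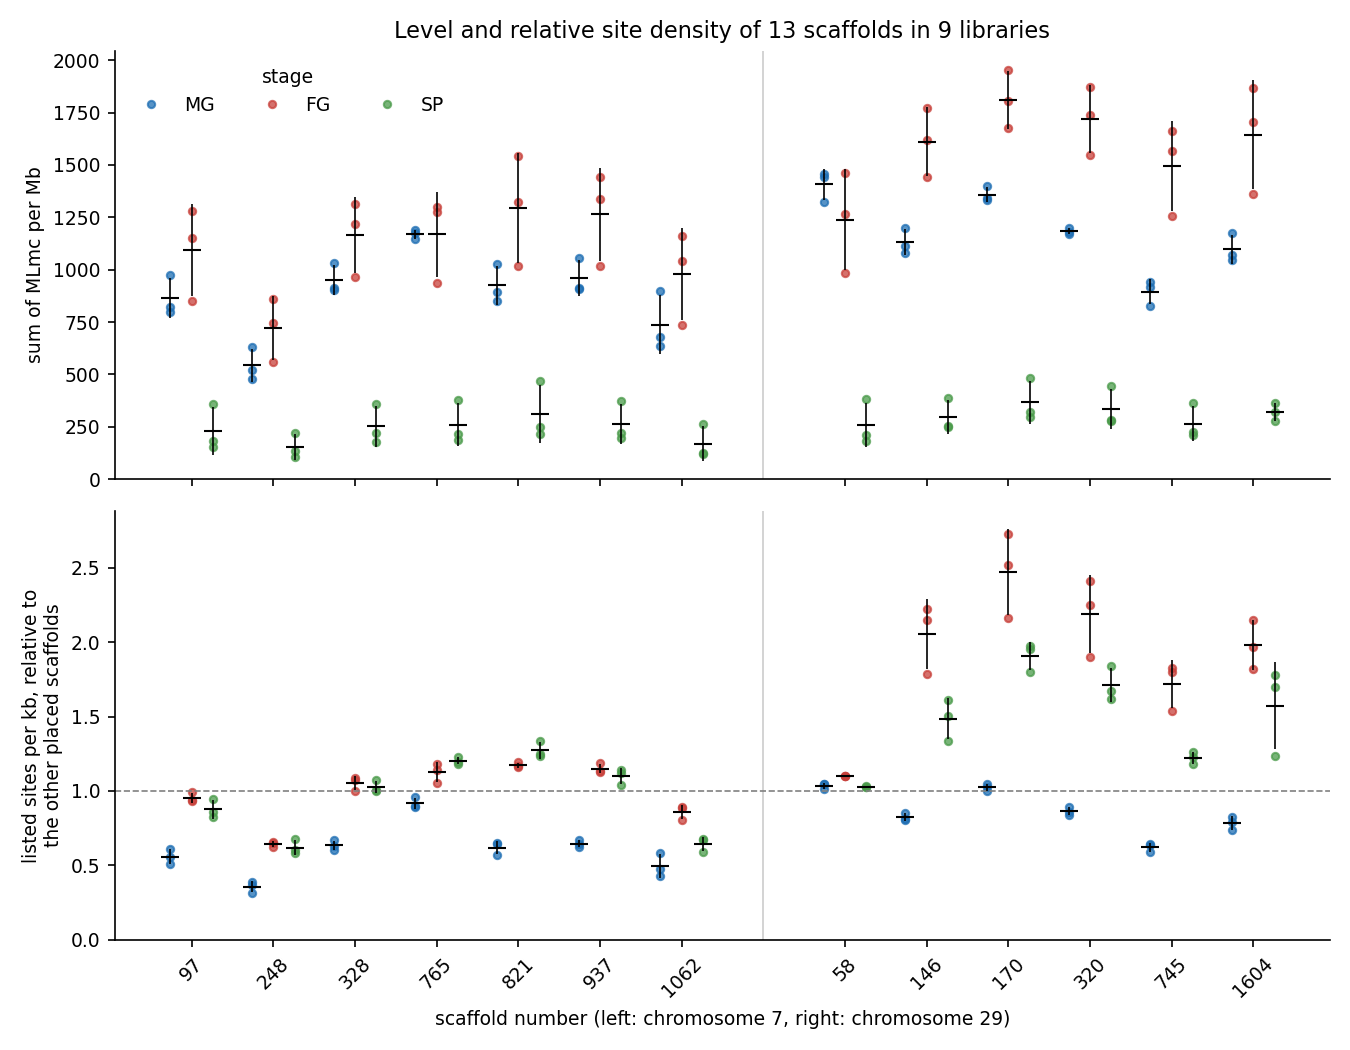
Upper panel: level (sum of MLmc per Mb) of each scaffold. Lower panel: listed mCs per kb divided by the value of the 278 other placed scaffolds in the same library (dashed line at 1). Each point is a library of MG, FG or SP, and the black bar and line give the mean and SD (n = 3). On the 5 chromosome 29 scaffolds to the right of scaffold 58, MG lies lowest and FG highest in the lower panel, and on chromosome 7 MG lies below FG and SP.

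When the level of a scaffold was divided by the library's own typical scaffold, 11 of the 13 scaffolds were called lower in MG than in FG (limma, 5.64% of 4099 scaffolds called lower). The relative difference was largest on scaffold 745 (log2 difference -0.93, standard error 0.0784, adjusted p = 5.03e-04). On the other 4 scaffolds of its kind it was -0.61 to -0.77. On chromosome 7 it was -0.48 to -0.67 on 6 scaffolds, and -0.18 on scaffold 765 (adjusted p = 0.0867), which did not pass. Scaffold 58 had a relative difference of 0.00 (standard error 0.0455, adjusted p = 0.994).

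Per chromosome, the relative level (level divided by that of the 278 other placed scaffolds) of chromosome 29 was 0.934, 0.940 and 0.945 in MG, against 1.46, 1.52 and 1.19 in FG, and 1.14, 1.37 and 1.30 in SP. MG overlapped with neither of the other stages, while FG and SP overlapped. On chromosome 7 it was 0.638, 0.599 and 0.693 in MG, against 0.976, 0.942 and 0.903 in FG, and 0.940, 0.895 and 0.941 in SP. Here too MG lay below both other stages, and FG and SP overlapped. Without the division, the level per Mb of chromosome 7 was 815.6, 792.6 and 944.8 in MG, against 1118, 841.4 and 1234 in FG, and 338, 157 and 187 in SP, so that the sexes overlapped (p = 0.2, exact permutation, adjusted p = 0.24). The level of chromosome 29 was 1193, 1243 and 1289 in MG, against 1675, 1356 and 1632 in FG, and 412, 241 and 259 in SP, and the sexes were separate (p = 0.1, exact permutation, adjusted p = 0.133). Both gametophyte stages lay above SP in the undivided level of either chromosome (p = 0.1 each, exact permutation). For the relative levels, the exact two-sided permutation test gave p = 0.1 for MG against FG and for MG against SP on both chromosomes, the smallest value that 3 libraries against 3 allow, and an adjusted p of 0.133 over the 12 tests. FG against SP gave p = 0.4 on chromosome 29 and p = 0.5 on chromosome 7 (exact permutation).

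Between the sexes, the number of listed mCs and their MLmc moved in opposite directions. On the 5 chromosome 29 scaffolds together, a set formed after their values were seen and therefore not tested, there were 8.84 ± 1.20 mCs per kb in MG, 17.4 ± 2.89 in FG and 2.95 ± 1.35 in SP (SD, n = 3). The mean MLmc of these mCs was 0.134 ± 0.0126 in MG, 0.0974 ± 0.0109 in FG and 0.115 ± 0.0183 in SP. As most of these mCs rest on 1 methylated read, their MLmc is nearly 1 divided by their coverage. The mean coverage of those in CHG and CHH was 9.19 ± 1.23 in MG, 13.1 ± 2.17 in FG and 10.7 ± 2.33 in SP. The higher mean MLmc in MG thus does not show that its mCs were more strongly methylated. Relative to the other placed scaffolds, the density of mCs was 0.862 ± 0.0149 in MG, 2.16 ± 0.237 in FG and 1.63 ± 0.112 in SP, so that SP lay between the sexes. On scaffold 58 the relative density was 1.04 ± 0.0198 in MG, 1.10 ± 0.00173 in FG and 1.03 ± 0.00534 in SP.

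On chromosome 7 without scaffold 765, the relative density of mCs was 0.537 ± 0.0421 in MG, 0.938 ± 0.0213 in FG and 0.891 ± 0.0189 in SP (SD, n = 3). FG and SP were thus close to the rest of the placed genome here and MG was not. On the 5 chromosome 29 scaffolds it was FG that lay farthest from 1. The scaffolds placed on chromosomes 4 and 17 had 1.64 ± 0.0904 in MG, 0.984 ± 7.7e-04 in FG and 1.21 ± 0.0585 in SP, the opposite direction between the sexes.

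The 10-kb bins show how even the difference was along each scaffold. Of 457 member bins, 443 had enough methylated reads to be tested, and 165 of 240 on chromosome 29 and 50 of 203 on chromosome 7 were called lower in MG than in FG (edgeR). Over all 57915 bins tested, 2.28% were called lower in MG and 8.46% higher. Only 2 member bins were called higher. The chromosome 7 count was 121 under edgeR's TMM scaling and 32, 24, 21 and 17 without FG1, FG3, MG1 and MG2, while the chromosome 29 count was 168 under TMM scaling and at least 154 without any 1 library. With only mCs of at least 2 methylated reads, 1 chromosome 29 bin and 0 chromosome 7 bins were called lower.

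All 165 called bins of chromosome 29 lay on the 5 scaffolds, which hold 172 bins, and 157 of the 172 had no overlap between the sexes (2.17% of all bins tested did not overlap with MG lower). The called bins formed 6 unbroken runs. The longest covered scaffold 170 from 1 to 490000 in 49 bins, with 15847 methylated reads summed over the MG libraries, against 30501 in FG, and 5171 in SP. Scaffold 146 had runs from 1 to 80000 and from 90001 to 510000. They were parted by a bin that holds part of the scaffold's longest stretch without any listed mC, from 75783 to 88813. Scaffold 745 was called from 1 to 210000 and scaffold 1604 over its whole length.

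Scaffold 320 began differently. Its first 2 bins, from 1 to 20000, had summed methylated reads of 235 and 277 in MG, against 193 and 240 in FG (log2 fold changes 0.20 and 0.11, not called). The run of called bins began at 20001 and went on to the end at 369855 in 35 bins, with 9565 methylated reads in MG, against 19880 in FG, and 3402 in SP. The last bin of scaffold 146, from 510001 to 518123, was likewise not called (371 in MG, against 395 in FG, log2 fold change -0.18). On scaffold 58 none of 68 bins was called lower, and the median over its bins was 0.13.

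**Figure D2:**
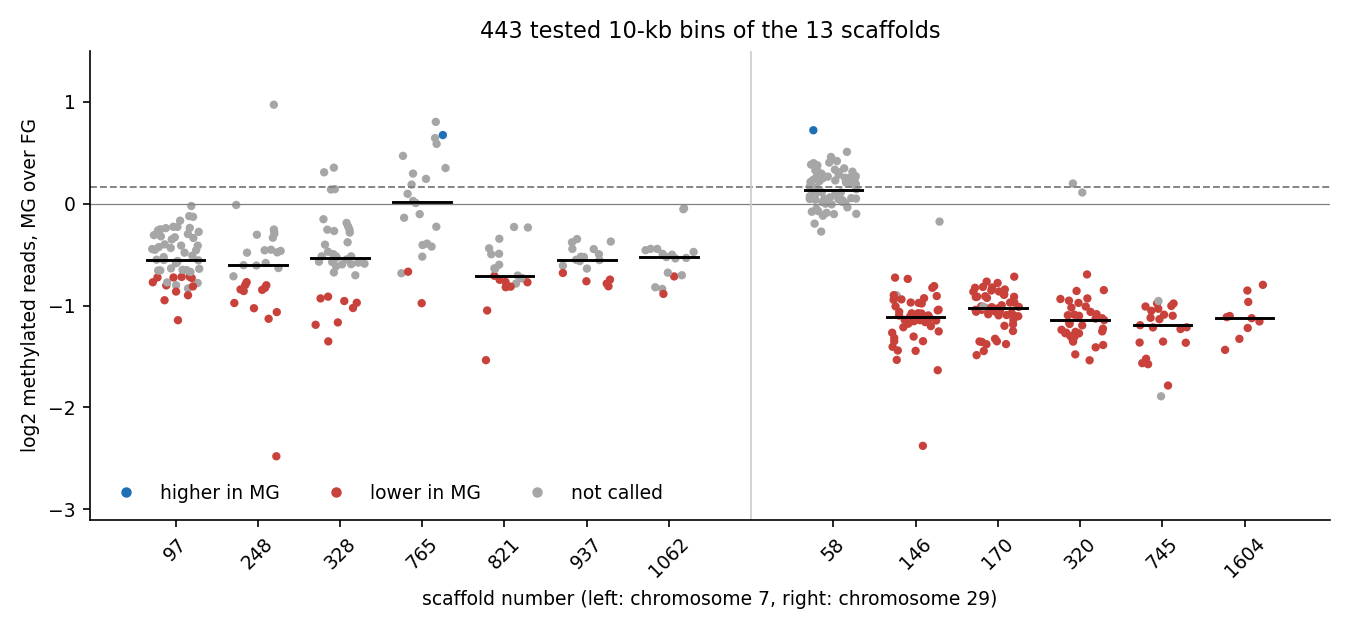
Log2 fold change of methylated reads, MG over FG, of the 443 tested 10-kb bins, by scaffold. Red and blue points passed the test with lower and higher values in MG, grey points did not, black bars are medians over bins, and the dashed line is the median of all 57915 bins (0.16). The 5 scaffolds right of scaffold 58 have medians of -1.03 to -1.19, and the chromosome 7 scaffolds other than 765 have medians of -0.52 to -0.71.

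Among the bins with the largest differences, scaffold 146 from 230001 to 240000 had 7, 9 and 5 methylated reads in MG, against 48, 24 and 33 in FG, and 14, 6 and 1 in SP (log2 fold change of MG over FG -2.38, adjusted p = 3.65e-05, edgeR). Scaffold 745 from 20001 to 30000 had 52, 72 and 49 in MG, against 240, 129 and 199 in FG, and 38, 19 and 16 in SP (log2 fold change -1.78, adjusted p = 1.11e-09). The neighbouring bin of scaffold 146, from 240001 to 250000, had 41, 38 and 88 in MG, against 135, 127 and 224 in FG (log2 fold change -1.63). In each of these bins the sexes were separate. The bin of chromosome 29 with the most methylated reads, scaffold 170 from 160001 to 170000, had 211, 194 and 262 in MG, against 345, 316 and 362 in FG, and 79, 40 and 54 in SP. Its log2 fold change of -0.72 (adjusted p = 0.00177, edgeR) was smaller than the scaffold's median of -1.03.

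On chromosome 7 the called bins formed 3 runs. The longest lay on scaffold 821 from 20001 to 90000 in 7 bins, with summed methylated reads of 1310 in MG, against 2282 in FG, and 587 in SP. The others were scaffold 248 from 290001 to 330000 and scaffold 328 from 320001 to 350000. The bin with the largest difference whose libraries did not overlap was scaffold 821 from 80001 to 90000, with 42, 25 and 39 in MG, against 72, 58 and 166 in FG, and 25, 15 and 15 in SP (log2 fold change -1.54, adjusted p = 4.44e-05, edgeR). Scaffold 328 from 70001 to 80000 had 41, 37 and 35 in MG, against 105, 74 and 94 in FG (log2 fold change -1.35), and the bin before it, from 60001 to 70000, had -1.19. Although only 48 of the 181 tested bins of these 6 scaffolds were called, 176 had a log2 fold change below 0. Over all tested bins the median was 0.16 and the 5th percentile -0.52. Bins of the same libraries are not independent of each other.

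Scaffold 765 (position 1 to 215364) had 2016, 2000 and 2392 methylated reads in MG, against 2115, 1538 and 2472 in FG, and 771, 324 and 367 in SP. As a whole it did not differ between the sexes beyond its spread (log2 fold change -0.01, adjusted p = 0.969, edgeR). Its ends did not resemble each other. In the 12 bins from 1 to 120000, 11 log2 fold changes were above 0 (median 0.27), with totals of 1127, 1164 and 1348 in MG, against 998, 757 and 1281 in FG. The median over all tested bins was also above 0, at 0.16. In the 10 bins from 120001 on, 9 were below 0 (median -0.41), with totals of 889, 836 and 1044 in MG, against 1117, 781 and 1191 in FG. The place of this division was chosen after the values were seen, so it was not tested, and 2 bins were called lower in MG and 1 higher.

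The bin called higher on scaffold 765, from 130001 to 140000, was also the bin of chromosome 7 with the most methylated reads. It had 217, 250 and 278 in MG, against 159, 114 and 167 in FG, and 68, 23 and 38 in SP (log2 fold change of MG over FG 0.67, adjusted p = 0.00408, edgeR). The mCs of this bin were covered by 41.6 reads in MG, 19.7 in FG and 39.1 in SP on average, against 7.26 to 8.73 reads in the bins on either side. The other bin called higher was scaffold 58 from 630001 to 640000, with 96, 131 and 100 in MG, against 66, 47 and 75 in FG (log2 fold change 0.72, adjusted p = 0.0366).

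Scaffold 248 (position 1 to 421878) held a stretch without any listed mC in any of the 9 libraries, from 827 to 149969. Without this stretch of 149 kb, its level was 842 ± 122 in MG, 1117 ± 236 in FG and 237 ± 93.0 in SP (SD, n = 3), compared with 544 ± 78.6 in MG, 722 ± 153 in FG and 153 ± 60.1 in SP over its full length. The first 826 bases had 102 methylated reads in SP1 and 0 in SP2 and SP3, while the MG libraries had 0, 6 and 0 and the FG libraries 2, 13 and 18. This bin was the only member bin called lower in MG, and in FG, than in SP, with log2 fold changes of -3.77 for MG over SP and -1.28 for FG over SP (edgeR). Neither call was made without SP1 (0 such bins), and the call for FG was not made without FG1 either.

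Relative to each library's median, the coverage of the mCs also differed between the sexes on most scaffolds called lower in methylated reads. Coverage was taken as the mean number of reads over the listed CHG and CHH mCs. For the tests, each library's median over the tested scaffolds was subtracted from log2 coverage, so the log2 differences are relative. On scaffold 745 it was 7.27, 7.53 and 9.62 reads in MG, against 10.5, 10.4 and 13.3 in FG, and 11.1, 7.50 and 8.75 in SP, and the sexes were separate. After that subtraction, the log2 difference of MG over FG was -0.57 (standard error 0.0328, adjusted p = 1.04e-04 in limma over 3920 scaffolds). The other 4 scaffolds had -0.55 to -0.63, and scaffold 58 had 0.00 (adjusted p = 0.965). On chromosome 7, scaffolds 97, 248, 328 and 1062 were called lower in MG at -0.16 to -0.22, scaffolds 821 and 937 did not pass at -0.05 and -0.10, and scaffold 765 was called higher at 0.30. With the median in place of the mean number of reads, scaffold 765 had -0.014 and was not called, and its bin from 130001 to 140000 was the most deeply covered of the scaffold. In all 9 of the 13 scaffolds were called lower in MG, next to 8.75% of all scaffolds tested, and 1 was called higher, next to 8.29%.

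**Figure D3:**
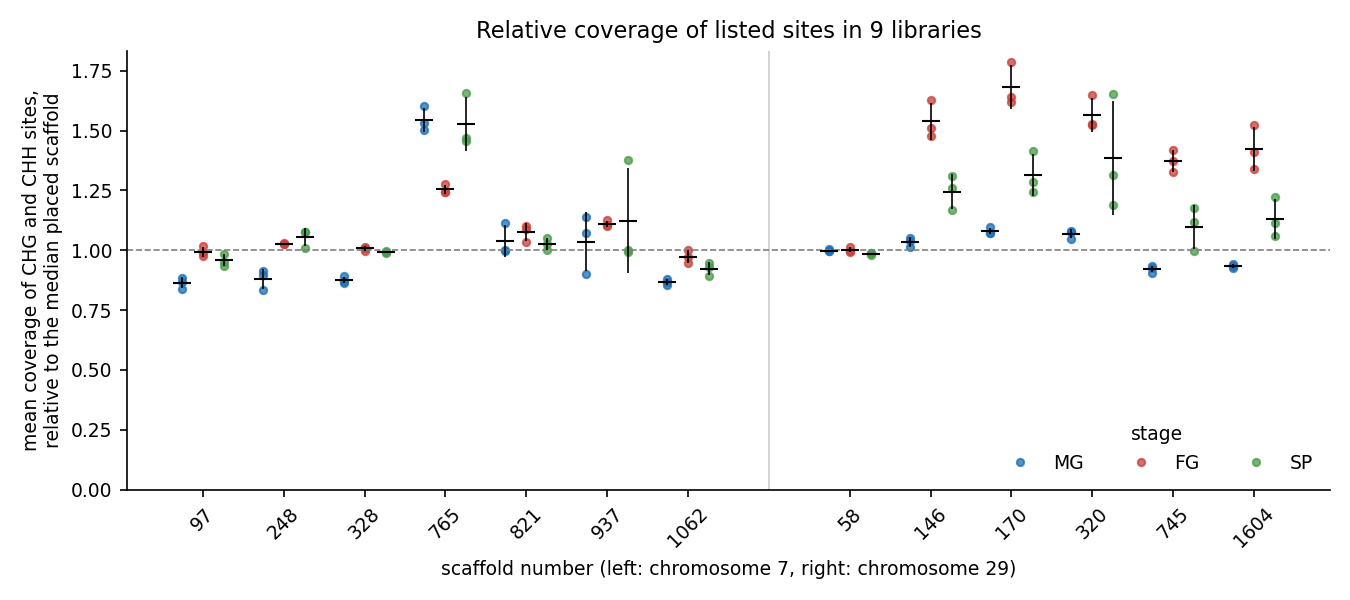
Mean coverage of listed CHG and CHH mCs of each scaffold, divided by the median of the 278 other placed scaffolds in the same library (dashed line at 1). Points are libraries, and the black bar and line give the mean and SD (n = 3). On scaffold 170 the mean is 1.08 in MG, 1.68 in FG and 1.31 in SP, and on scaffold 58 all 9 libraries lie near 1.

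Relative to the median placed scaffold, the coverage of scaffold 170 was 1.10, 1.07 and 1.07 in MG, against 1.64, 1.62 and 1.79 in FG, and 1.41, 1.24 and 1.29 in SP. Thus SP lay between the sexes here also. Scaffold 745 had 0.921 ± 0.0136 in MG, 1.37 ± 0.0464 in FG and 1.10 ± 0.0916 in SP (SD, n = 3). Scaffold 765 had 1.55 ± 0.0508 in MG, 1.25 ± 0.0183 in FG and 1.53 ± 0.112 in SP.

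By bins, coverage was called lower in MG in 160 of 237 tested bins on chromosome 29 and in 46 of 199 on chromosome 7 (limma), with 3.39% called lower and 6.41% called higher over all 53418 bins. Here each library's median over the tested bins was subtracted from log2 coverage. None of the chromosome 29 calls was on scaffold 58. Of the 165 chromosome 29 bins called lower in methylated reads, 157 were also called lower in coverage. Of the 50 on chromosome 7, 21 were. The chromosome 7 coverage count was 4 with median coverage, 18 without FG1 and 23 without FG3. The longest run was scaffold 170 from 80001 to 430000 in 35 bins. Coverage thus moved with the methylated reads on the 5 chromosome 29 scaffolds, and only in part on chromosome 7. There, scaffolds 821 and 937 were called lower in methylated reads but not in coverage averaged over the whole scaffold. By bins, their median log2 differences in coverage were -0.26 and -0.22. Of the tested bins, 8 of 20 on scaffold 821 and 4 of 19 on scaffold 937 were called lower. On each, 1 bin was called higher, and the highest log2 differences were 0.83 and 0.79. The part of coverage in the difference between the sexes was not tested.

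**Figure D4:**
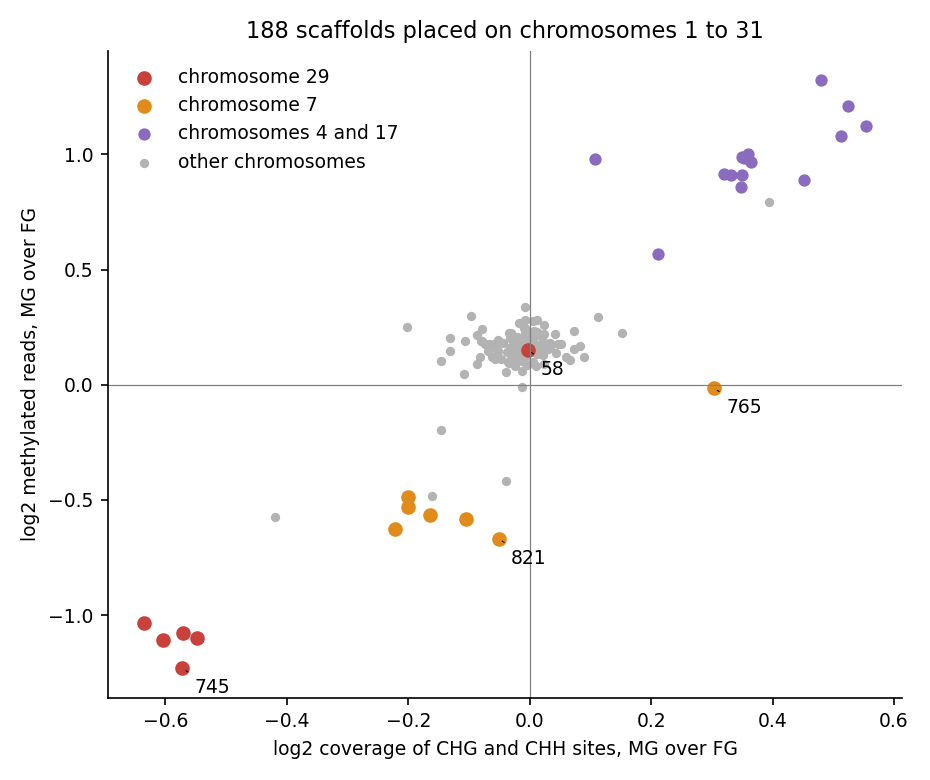
Log2 fold change of methylated reads against log2 difference in coverage, MG over FG, of the 188 scaffolds placed on chromosomes 1 to 31. Each library's median was subtracted from log2 coverage. Each point is a scaffold. The 5 chromosome 29 scaffolds stand at -1.03 to -1.23 in reads and -0.55 to -0.63 in coverage, scaffold 58 lies among the other chromosomes, and scaffold 765 lies apart from both.

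Within classes of coverage the picture differed. Counting only CHG and CHH mCs with 1 methylated read on the 5 chromosome 29 scaffolds, mCs with 5 to 8 reads numbered 6508 ± 629 in MG, 5004 ± 1015 in FG and 894 ± 293 in SP (SD, n = 3). Those with 9 to 12 reads numbered 3212 ± 927 in MG, 6985 ± 814 in FG and 955 ± 770 in SP. Those with 13 to 20 reads numbered 1277 ± 1323 in MG, 8432 ± 3090 in FG and 838 ± 1118 in SP. FG thus had the higher counts in the classes of 9 to 12 and of 13 to 20 reads. In the class of 13 to 20 reads, the MG libraries had 488, 539 and 2805. How many cytosines of each class were covered is not known, so these counts do not show where methylation differed. On scaffold 58 the ratio of MG to FG was above 1 in all 3 classes, with log2 values of 0.13, 0.31 and 0.59. On chromosome 7 without scaffold 765, the log2 values were -0.26, -0.90 and -1.15. These are descriptions, as the sets of scaffolds were formed with their values known.

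**Figure D5:**
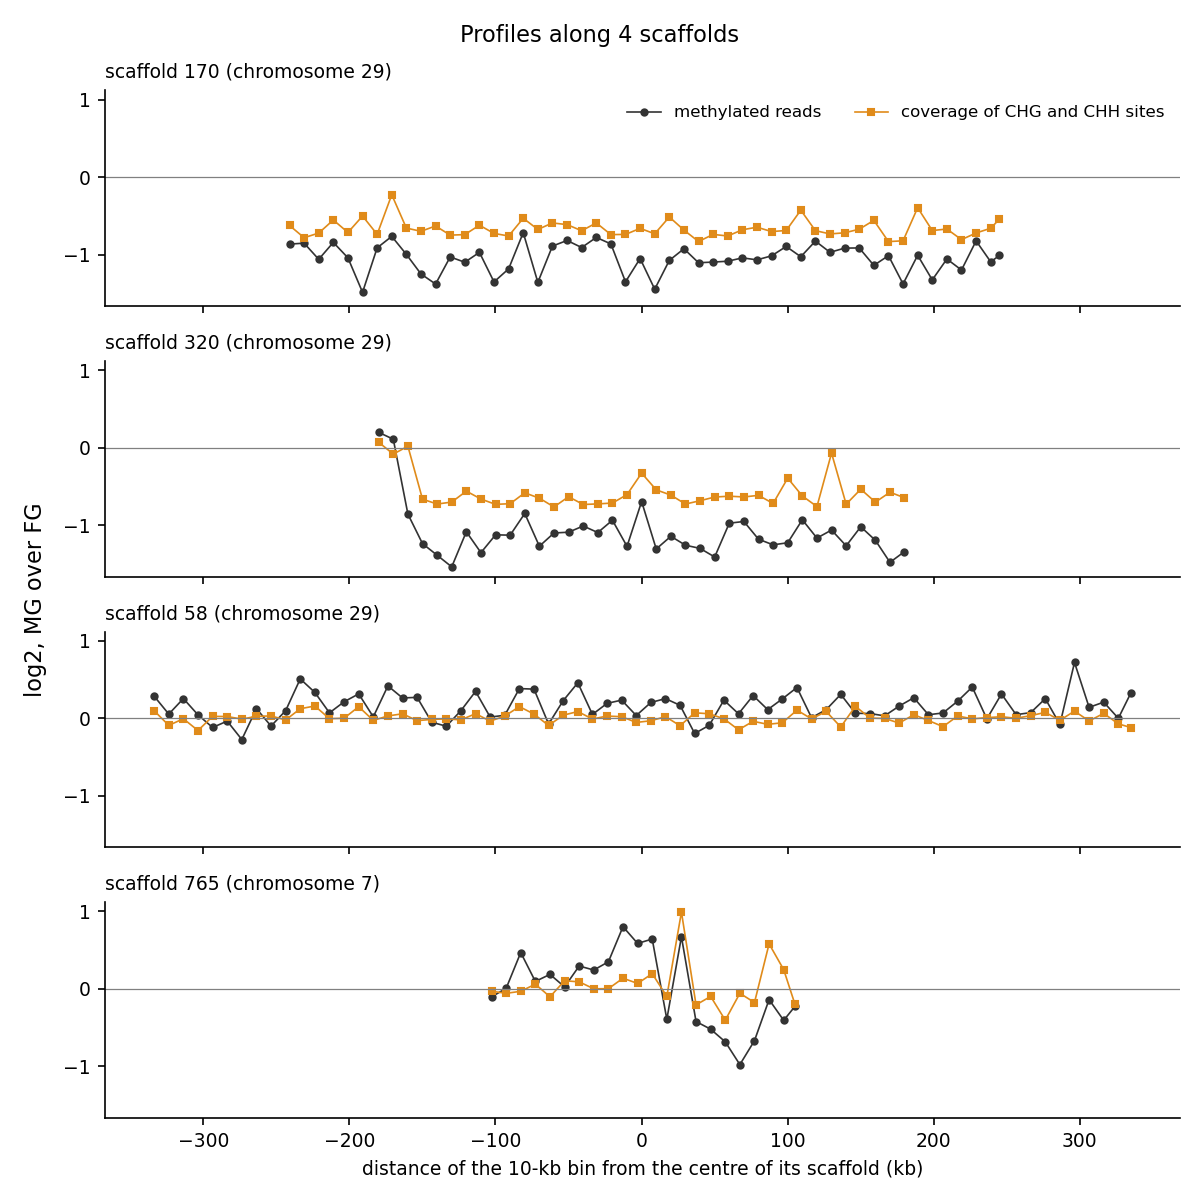
Log2 MG over FG of methylated reads (black) and of the coverage of CHG and CHH mCs (orange) in 10-kb bins, by distance from the centre of the scaffold in kb. Each library's median was subtracted from log2 coverage. Methylated reads lie below 0 along scaffold 170 and along scaffold 320 except near its start, scaffold 58 has no bin called lower and 1 called higher, and scaffold 765 turns from above 0 to below 0 past its middle. The median of methylated reads over all tested bins was 0.16.

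The 160 scaffolds on chromosomes other than 0, 4, 7, 17 and 29 served as a comparison. Their log2 fold changes of methylated reads, MG over FG, had a median of 0.17 with 5th and 95th percentiles of 0.08 and 0.26, and 1 of them was called lower and 1 higher (edgeR). The scaffold called lower, scaffold 591 of chromosome 3, had -0.58 in methylated reads and -0.42 in coverage. The 5 chromosome 29 scaffolds were all below the lowest of these 160 values, whereas the chromosome 7 values of -0.49 to -0.67 reached into the low end of the 160. This does not hold for the placed scaffolds of chromosome 0, where 10 of 98 tested were called lower and 8 higher (edgeR). One of those called lower, scaffold 392 with 332 kb, had -1.09 in methylated reads and -0.63 in coverage. All 15 scaffolds of chromosomes 4 and 17 were called higher in MG, at 0.57 to 1.32.

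Against SP, both gametophytes had higher values on every scaffold. Scaffold levels were called higher in FG than in SP on 13 of 13 scaffolds, with log2 differences of 2.12 to 2.60, and in MG than in SP on 13 of 13, with 1.65 to 2.52 (limma). Over all scaffolds tested, 98.9% were called higher in FG and 99.8% in MG, so that the call itself sets the 13 scaffolds apart from nothing. In methylated reads per mapped read, 13 of 13 scaffolds were called higher in FG than in SP (89.6% of all scaffolds) and 13 of 13 higher in MG than in SP (92.6% of all scaffolds, edgeR). The log2 fold changes of FG over SP were 2.82 to 2.95 on the 5 chromosome 29 scaffolds and 2.53 on scaffold 58, next to a median of 2.41 over all scaffolds. For MG over SP they were 1.71 to 1.87 on the 5 scaffolds and 2.69 on scaffold 58, next to a median of 2.59.

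By bins, 441 of 443 were called higher in FG than in SP (97.5% of all bins) and 438 higher in MG than in SP (98.9% of all bins), and 1 was called lower in each comparison (0.403% of all bins for FG and 0.0679% for MG, edgeR). The counts were set by the scaling. With edgeR's TMM scaling, which centres all bins, 4 were called higher and 1 lower in FG than in SP, and 1 higher and 154 lower in MG than in SP. The median log2 fold change of the 13 scaffolds for MG over SP was 1.87 with mapped reads as library size and -0.72 with TMM scaling. The fits against SP share their gametophyte libraries with the comparison between the sexes.

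The contexts of the mCs did not differ between the sexes beyond their spread. On chromosome 29, CpG made up 24.5%, 24.4% and 21.0% of the mCs in MG, against 22.8%, 23.4% and 18.8% in FG, and 27.8%, 58.9% and 61.3% in SP (MG against FG, p = 0.5, exact permutation, adjusted p = 0.562 over 18 tests). On chromosome 7 the CpG share was 22.6% ± 1.30 in MG, 23.2% ± 0.317 in FG and 49.6% ± 19.3 in SP (SD, n = 3). Each gametophyte stage was separate from SP in the CpG and CHH shares of both chromosomes at the smallest possible p of 0.1 (exact permutation, adjusted p = 0.18). SP2 and SP3 held most of that difference, since SP1, with 27.3% in CpG and 53.1% in CHH on chromosome 7, lay nearer to the gametophyte libraries than to SP2 and SP3. Both strands were listed about equally, with 48.6% to 51.7% of the mCs on the plus strand.

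Single positions seldom recurred. Of 171705 positions listed on chromosome 29, 88.7% were listed in 1 library only, and of 91438 on chromosome 7, 92.3% were. No position was listed in more than 7 of the 9 libraries. A CHH position on scaffold 146, 410981 on the plus strand, was listed in 7, with MLmc of 0.25, 0.40 and 0.27 in MG1 to MG3, against 0.55, 0.083 and 0.14 in FG1 to FG3, and 0.44 in SP1, at coverages of 5 to 20 reads. A CpG position on scaffold 765, 134071 on the minus strand, was listed in 7 with MLmc of 0.053 to 0.16 at coverages of 19 to 75 reads, and it lies in the deeply covered bin described above. No position had an MLmc of at least 0.5 at 10 or more reads in 3 libraries. In single libraries 5 did, the CHH position of scaffold 146 in FG1 and 4 positions within the first 704 bases of scaffold 248 in SP1.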

How the data were processed

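DNA methylation was measured by WGBS in 9 libraries of *S. japonica*. Per the study's methods, the authors aligned the reads with Bismark at default parameters and discarded duplicate read pairs before calling; the version of the scaffold assembly is not given in the sources used here. The authors deposited, per listed cytosine, counts of methylated and unmethylated reads, the methylation level as a fraction (0 to 1), and p-values of their site test, which were not used further. Reads were not reprocessed, and p-values measure the spread between libraries.

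Methylated reads were summed per scaffold and 10-kb bin over all nuclear scaffolds (at least 10 per comparison) and tested with edgeR 4.0.16 (quasi-likelihood), with the study's mapped reads as library sizes and no further scaling. Log2(level + 1) (mean of at least 50 mCs), relative levels (minus the library's median) and log2 mean coverage (also minus the library's median) were tested with limma 3.58.1. Each test used the 2 stages compared, and p-values were adjusted (Benjamini-Hochberg) over all features at 0.05. Tests were checked on simulated data. Chromosome levels and context shares used exact two-sided permutation tests. Alternatives comprised TMM, DESeq2 1.42.0, other site filters, a replicate block and leaving out each library. Members and lists were chosen with earlier results of these data known. Named bins were those called with the largest change and separate libraries (up to 3 per direction and chromosome), runs of at least 3 called bins, and the bin with most methylated reads per chromosome. No sequence or gene annotation was used here.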

Additional observations from a re-analysis of the deposited data

How the results depend on the processing

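Most mCs rest on 1 methylated read, which limits filters on sites. Of the differences between MG and FG, the methylated reads of the 5 chromosome 29 scaffolds kept their direction in every alternative run. Their calls held in these, except that scaffolds 146, 170, 745 and 1604 were not called with at least 10 reads of coverage.

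With at least 2 methylated reads per site, bins called lower in MG than in FG numbered 1 on chromosome 29 and 0 on chromosome 7, and scaffolds called lower numbered 5 in methylated reads and 5 in relative level. With at least 10 reads of coverage, 4 chromosome 7 bins and 1 scaffold were called lower in methylated reads, and 5 scaffolds in level. For chromosome 7 bins the count was 121 with edgeR's TMM scaling and 106 with DESeq2, and 17 to 61 without 1 library. The bins called higher in MG numbered 1 with TMM, with DESeq2 and with at least 2 methylated reads, 0 with at least 10 reads of coverage, and 1 to 7 without 1 library. Scaffolds called lower in MG numbered 5 to 11 without 1 library, and 0 to 1 were called higher. In level, 0 scaffolds were called lower with no minimum of sites, and 0 to 8 without 1 library. Coverage by median called 0 scaffolds and 1 bin higher and 4 chromosome 7 bins lower. Coverage of mCs with 1 methylated read called 0 scaffolds and 2 bins higher. Without 1 library, 18 to 40 chromosome 7 bins were called lower in coverage and 3 to 6 bins higher.

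Bins called higher in FG than in SP numbered 4 with TMM, 2 with DESeq2, 276 with at least 2 methylated reads and 160 with at least 10 reads of coverage. Those higher in MG than in SP numbered 1, 0, 178 and 77 in the same order. Bins lower in MG than in SP numbered 154 with TMM and 101 with DESeq2. Bins lower in FG than in SP numbered 0 with DESeq2, with at least 10 reads of coverage and with CHG and CHH mCs only. Either comparison with SP had 0 to 1 bins called lower without 1 library. Scaffolds higher in FG than in SP numbered 5 with TMM and 6 with DESeq2. Those higher in MG than in SP numbered 0 with both and 3 with at least 10 reads of coverage, and 11 were called lower with both. In level, FG was higher than SP on 6 scaffolds with at least 2 methylated reads and on 5 with at least 10 reads of coverage, and MG on 5 and 2. The median log2 fold change of MG over SP turned to -0.72 with TMM and -0.73 with DESeq2 over scaffolds, and to -0.65 and -0.66 over bins.

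Values near 0 changed sign. Scaffold 58 had log2 fold changes of MG over FG of -0.001 with TMM and -0.0063 with DESeq2. Its relative difference was -0.039 with no minimum of sites, -0.034 with at least 2 methylated reads, -0.016 with at least 10 reads of coverage, and -0.0126 to 0.0293 without 1 library, below 0 without FG1, FG2, MG2 or MG3. Its coverage difference was -0.0064 to 0.0039 without 1 library, above 0 without FG2. Scaffold 765 had 0.89 with at least 2 methylated reads, 0.12 with at least 10 reads of coverage, 0.011 with CHG and CHH mCs only, and -0.0989 to 0.0738 without 1 library, above 0 without FG3 and MG2. Its level difference was -0.137 to 0.0983 without 1 library, below 0 without FG2, and its median coverage difference -0.014. Scaffold 821 had 0.013 with at least 2 methylated reads.

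The relative level of FG minus SP was -0.014 on chromosome 7 with at least 10 reads of coverage, -0.443 on chromosome 7 and -0.011 on chromosome 29 with at least 2 methylated reads, and -0.0027 to 0.034 on chromosome 7 without 1 library. For MG minus FG in percentage points, with at least 2 methylated reads the CpG share was 0.16 on chromosome 7 and -1.84 on chromosome 29, the CHG share 1.05 and the CHH share 0.781 on chromosome 29. With at least 10 reads of coverage the CHG share was 0.472 on chromosome 7 and 0.381 on chromosome 29. The CpG share on chromosome 7 was -1.14 to 0.124 without 1 library. The cause of these changes was not tested.

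The replicate numbers were tried as pairs. Same-numbered MG and FG libraries deviated together with correlations of 0.0816, 0.0904 and 0.241, and every MG and FG library correlated best with its own number, but not all correlations passed 0.1, so the numbers were not taken to pair the libraries. With the replicate block, 82 chromosome 7 bins and 167 chromosome 29 bins were called lower in MG than in FG, and 0 bins lower in FG than in SP. It moved no other count by over 1.5 times.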

Other observations

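Scaffolds with the same combination of values were not confined to the placed ones. Of 1565 scaffolds of at least 100 kb that were tested in both measures, 57 with 15.7 Mb in all were called lower in MG than in FG both in methylated reads (edgeR) and in the coverage of CHG and CHH mCs (limma). Of these, 7 belonged to chromosome 7 or 29, 3 to chromosome 0 and 1 to another chromosome, and 46 had no placement in the sources used here. Among all 1565, 1334 had no placement and 12 belonged to chromosome 7 or 29. Scaffold 1604, with 97.8 kb, fell below the length limit. In 17 of the 57, with 5.14 Mb, the log2 fold change of methylated reads was below -0.8. The chromosome 29 scaffolds 146, 170, 320 and 745 made up 4 of these 17, while 12 had no placement. Both limits were chosen after the values were seen.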
